A study of Mus musculus with 18 samples.

Results

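The sirtuin family comprises 7 genes in the mouse, Sirt1 to Sirt7, and their transcripts were examined in mouse substantia nigra, a part of the midbrain with many dopaminergic neurons. The members were chosen by name: the 7 rows carrying these symbols were taken from a table of 55270 genes, and all 7 passed the filter on low values that left 19443 genes for testing. Poly-A RNA had been sequenced from 18 mice aged 3 months, 6 in each of 3 groups. Intact mice were labelled wild type with no virus named, AAV-GFP mice received an adeno-associated virus (AAV) carrying green fluorescent protein, and AAV-SIRT3 mice received an AAV carrying SIRT3, in both cases about a month before the tissue was taken. AAV-GFP is therefore the control that shares the virus with AAV-SIRT3, and the intact group differs from AAV-SIRT3 in the virus as well as in its cargo. The labels do not give the promoter, serotype, dose or sex, nor the species of the delivered SIRT3 sequence.

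Sirtuins are NAD+-dependent enzymes that remove acetyl or longer acyl groups from lysines, and they release nicotinamide, which inhibits them. SIRT1, SIRT6 and SIRT7 act mainly in the nucleus, SIRT2 mainly in the cytosol, and SIRT3, SIRT4 and SIRT5 in the mitochondrial matrix. SIRT3 is the main mitochondrial protein deacetylase, and in brain SIRT2 is known as an abundant protein of oligodendrocytes.

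Depth was 47.2 to 64.7 M reads (megareads) assigned to genes per library. Values are normalised read counts, that is reads scaled to a common depth. All 10 dopaminergic markers examined were above 0 in every library, and their summed level ran from 47436 to 62957 in intact mice, from 41120 to 52549 in AAV-GFP and from 46903 to 55821 in AAV-SIRT3. Th, the rate-limiting enzyme of dopamine synthesis, lay at 3673 to 5429 in AAV-GFP and at 5448 to 5938 in AAV-SIRT3, without overlap, although its difference missed the threshold (adjusted p = 0.122). Slc6a3, the dopamine transporter, fell in AAV-GFP against intact, from 9283 to 12867 down to 6087 to 9172 (adjusted p = 0.0263). Microglial markers (8 of 8 detected) summed to 12239 to 14217 in intact mice, 13645 to 16902 in AAV-GFP and 13620 to 16170 in AAV-SIRT3. AAV-GFP replicate 2 stood apart among its group: it was the highest of the 6 for Sirt3, Sirt4, Sirt6 and Sirt7 and the lowest for Sirt1, and without it 861 genes rather than 22 were called between AAV-SIRT3 and AAV-GFP. Choroid plexus markers (5) summed to 894 to 47955 in intact mice, 562 to 42343 in AAV-GFP and 545 to 1713 in AAV-SIRT3, and pituitary markers (3) to 501 to 5215, 84.3 to 484 and 56.2 to 592, and their part in the comparisons with intact was not tested. In bulk tissue, fewer cells of a type and less RNA per cell cannot be told apart.

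Sirtuin genes differ in their surroundings, and in 2 cases a start site faces that of another gene at close range. In GENCODE M21 (GRCm38) Sirt3 lies on the minus strand at chr7:140863666-140882309, its exons overlapping those of Psmd13 by 342 bp at the 5′ end and those of Ric8a by 418 bp at the 3′ end, both on the opposite strand. Sirt2 lies on the plus strand at chr7:28766735-28788661 and its exons overlap those of the opposite-strand gene Nfkbib by 42 bp. Sirt7 (chr11:120618372-120625240, minus strand) shares 124 bp of exon with Mafg on the same strand and holds the microRNA gene Mir6936. Sirt1 (chr10:63319005-63381704, minus strand) overlaps the antisense gene Gm16145 by 65 bp of exon. Sirt4 (chr5:115478010-115484725, minus), Sirt5 (chr13:43365496-43395203, plus) and Sirt6 (chr10:81621785-81627797, minus) overlap no annotated gene. All 7 are protein coding.

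The start regions of Sirt3, Sirt2 and Sirt1 are shown because Sirt3 and Sirt2 have divergent neighbours whose values are given with theirs, and because Sirt1 was the sirtuin that passed a test. Each is a RefSeq window (GRCm38.p6) of 300 bases, from 250 before to 50 after the start site, read along the gene's strand. For Sirt3 the window next to Psmd13 is shown, and another, with its start site at chr7:140881869, is not. In Sirt3 (chr7:140882260-140882559, minus strand) the capitals mark the 84 bases between its start and the divergent start of Psmd13. In Sirt2 (chr7:28766502-28766801, plus strand) they mark the 107 bases between its start and that of Nfkbib, and in Sirt1 (chr10:63338986-63339285, minus strand) they mark 2 copies of the E-box CACGTG. The RefSeq starts used here leave a gap in both pairs, whereas GENCODE M21 has their exons overlapping there. Which annotation the counting used is not given.
Sirt3: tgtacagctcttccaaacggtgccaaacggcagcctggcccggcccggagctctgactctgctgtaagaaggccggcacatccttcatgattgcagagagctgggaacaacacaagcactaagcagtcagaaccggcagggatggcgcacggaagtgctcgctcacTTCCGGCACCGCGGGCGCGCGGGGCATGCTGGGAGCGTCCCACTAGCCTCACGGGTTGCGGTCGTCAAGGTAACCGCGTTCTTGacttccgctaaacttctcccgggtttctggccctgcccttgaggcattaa
Sirt2: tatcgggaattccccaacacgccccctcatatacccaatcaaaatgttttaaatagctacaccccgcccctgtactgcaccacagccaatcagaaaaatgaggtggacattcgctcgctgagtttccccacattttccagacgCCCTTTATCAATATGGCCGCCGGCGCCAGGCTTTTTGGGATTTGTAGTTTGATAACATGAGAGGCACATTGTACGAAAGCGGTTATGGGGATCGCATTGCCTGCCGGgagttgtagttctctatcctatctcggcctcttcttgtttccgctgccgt
Sirt1: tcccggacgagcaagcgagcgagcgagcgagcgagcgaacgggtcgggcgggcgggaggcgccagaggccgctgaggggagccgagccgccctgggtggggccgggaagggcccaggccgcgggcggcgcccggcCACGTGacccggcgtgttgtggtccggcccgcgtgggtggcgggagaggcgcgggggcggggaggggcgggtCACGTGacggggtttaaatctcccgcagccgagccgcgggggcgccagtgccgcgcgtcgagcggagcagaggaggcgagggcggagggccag
The Sirt1 window was 79.0% G and C, against 61.0% for Sirt3. Of the 9 RefSeq windows of sirtuin genes, Sirt1 alone held CACGTG, which reads the same on both strands and occurred in 7.15% of 32851 mouse windows. The GC box GGGCGG, searched on both strands, had 7 copies in the Sirt1 window, was present in 6 of the 9 and occurred in 35.7% of all windows. The Sirt3 window shown held 0 copies of it, and the Sirt3 window not shown held 4. The letters TTGTAGTT occurred 2 times in the Sirt2 window and 1 time in that of Sirt4, and in 1.36% of all windows. A match is a description of the letters and no evidence of binding.

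Per kilobase of exon, Sirt2 was by far the most abundant sirtuin of the substantia nigra. Its level was 2224 ± 126 normalised reads per kb (SD, n = 18), above 94.7% of 18824 tested genes with a known exon length. Sirt7 followed at 327 ± 27.5, Sirt4 at 323 ± 27.0, Sirt3 at 309 ± 17.2, Sirt6 at 265 ± 22.7, Sirt1 at 196 ± 12.01 and Sirt5 at 142 ± 12.9. These 6 levels stood between the 46.6 and 64.2 percentiles of tested genes, so 6 sirtuins were of middling abundance and 1 was high.

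Sirt2 exceeded Sirt7 by 6.79-fold, in 18 of 18 libraries and without overlap of their ranges. Sirt7 exceeded Sirt4 in 9 of 18 libraries and Sirt4 exceeded Sirt3 in 12 of 18, so the order of these neighbours lay within their spread. Sirt3 exceeded Sirt6 in every library although their ranges overlapped, while Sirt6 over Sirt1 and Sirt1 over Sirt5 held in every library without overlap. The length used matters below Sirt2: divided by the length of the principal transcript, the order was Sirt2 (6077 per kb), Sirt3 (1263), Sirt7 (976), Sirt5 (621), Sirt4 (432), Sirt6 (390) and Sirt1 (236). Of the family's summed level per kb of exon, Sirt2 made up 58.6% in intact mice, 59.0% with AAV-GFP and 58.6% with AAV-SIRT3. The mitochondrial members together made up 20.6% ± 1.03, 20.4% ± 1.09 and 20.4% ± 1.01 (SD, n = 6 each).

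**Figure D1:**
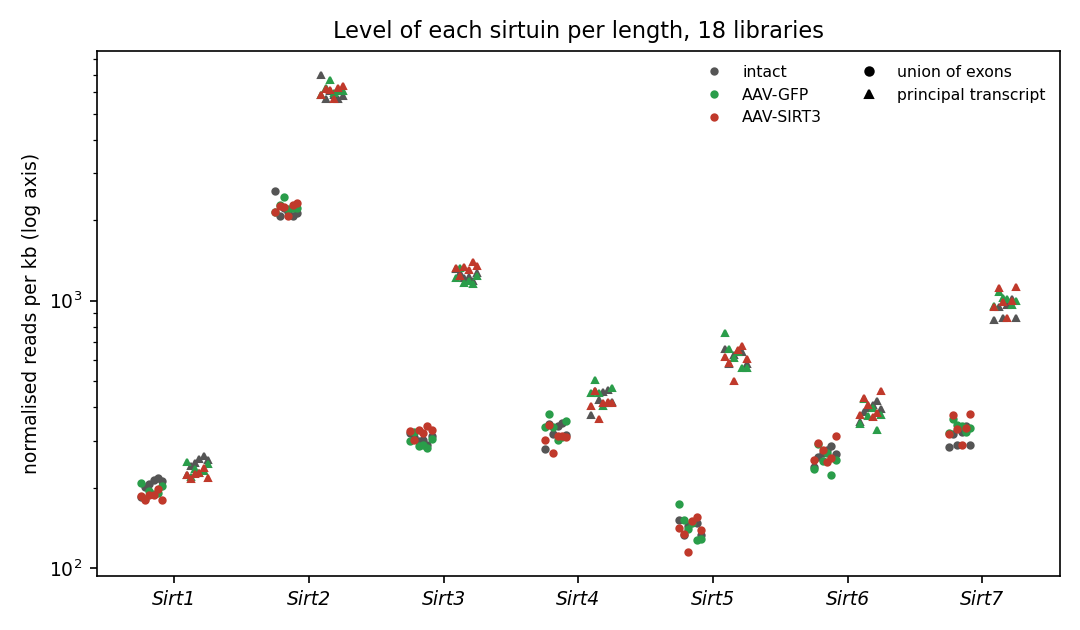
Level of each sirtuin in normalised reads per kb on a log axis, with 1 symbol per library coloured by group, divided by the length of all exons (circles) or of the principal transcript (triangles). Sirt2 stands above the others in all 18 libraries by either length, while the place of the other 6 depends on it.

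No sirtuin passed the test between AAV-SIRT3 and AAV-GFP, the comparison that asks what differs with SIRT3 beyond the virus and GFP. Sirt3, the gene named for the virus, had the largest difference, 9.15% higher in AAV-SIRT3, followed by Sirt4 at -8.28%. The count was 0 of 7 by limma with Benjamini-Hochberg adjustment over all 19443 genes, against 0.113% of all genes called (0.036% higher and 0.0771% lower), and 0 of 7 by edgeR and by DESeq2 on the recovered reads. At an unadjusted p under 0.05, 1 of 7 passed, against 15.2% of all genes. The libraries of the 2 groups overlapped for all 7 sirtuins, and 0.751% of all genes separated without overlap.

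Sirt3 is given library by library, replicates 1 to 6, because SIRT3 was the cargo of the virus in 1 group. Intact mice had 1920, 1851, 1784, 1794, 1733 and 1861 normalised reads, and AAV-GFP mice had 1783, 1936, 1705, 1729, 1684 and 1814. AAV-SIRT3 mice had 1944, 1801, 1961, 1908, 2041 and 1967. All AAV-SIRT3 libraries but replicate 2 exceeded at least 5 of the 6 AAV-GFP libraries. The groups overlapped, since AAV-GFP replicate 2 lay above AAV-SIRT3 replicates 2 and 4 and AAV-GFP replicate 6 above AAV-SIRT3 replicate 2, with AAV-SIRT3 higher in 33 of 36 pairs of libraries.

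The Sirt3 mean was 1937 ± 79.4 in AAV-SIRT3 against 1775 ± 92.4 in AAV-GFP and 1824 ± 66.3 in intact (SD, n = 6 each). The log2 fold change over AAV-GFP, on the log2(value + 1) scale used throughout, was 0.13 (SE 0.042), and the 95% interval ran from 2.71% to 15.98% higher. Across all genes the limma test with Benjamini-Hochberg adjustment gave an adjusted p of 0.183, while the exact two-sided permutation test on Sirt3 alone gave p = 0.0152, where 0.00216 is the smallest possible. Without AAV-GFP replicate 2 the fold change was 0.15 and the adjusted p 0.0390, and over the 30 alternatives tried the adjusted p ran from 0.0390 to 0.359. Against intact, Sirt3 in AAV-SIRT3 was 6.19% higher, with an interval from -0.0695% to 12.8% (adjusted p = 0.148). How far reads from the delivered SIRT3 could be assigned to the mouse gene was not tested. The dopaminergic marker sums given above overlapped between the virus groups, and the Sirt3 level had r = 0.35 with the dopaminergic marker score over the 18 libraries (permutation p = 0.158, rho = 0.38 with p = 0.126, r = 0.11 without the 2 farthest libraries, adjusted p = 0.733 over 70 relations). Astrocyte marker sums ran from 98963 to 124080 in AAV-GFP and from 92762 to 98573 in AAV-SIRT3, without overlap. With the astrocyte score Sirt3 had r = -0.52 (permutation p = 0.0254, adjusted p = 0.356, rho = -0.44 with p = 0.0657), and r = -0.14 without the 2 farthest libraries. With the score of hippocampus and cortex markers Sirt3 had r = -0.53 (permutation p = 0.0227, adjusted p = 0.356, rho = -0.57 with p = 0.0157), r = -0.47 without the 2 farthest libraries, and -0.84, -0.87 and 0.16 within intact mice, AAV-GFP and AAV-SIRT3. Neither relation passed after adjustment, and the part of these cells in the Sirt3 values was not tested.

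**Figure D2:**
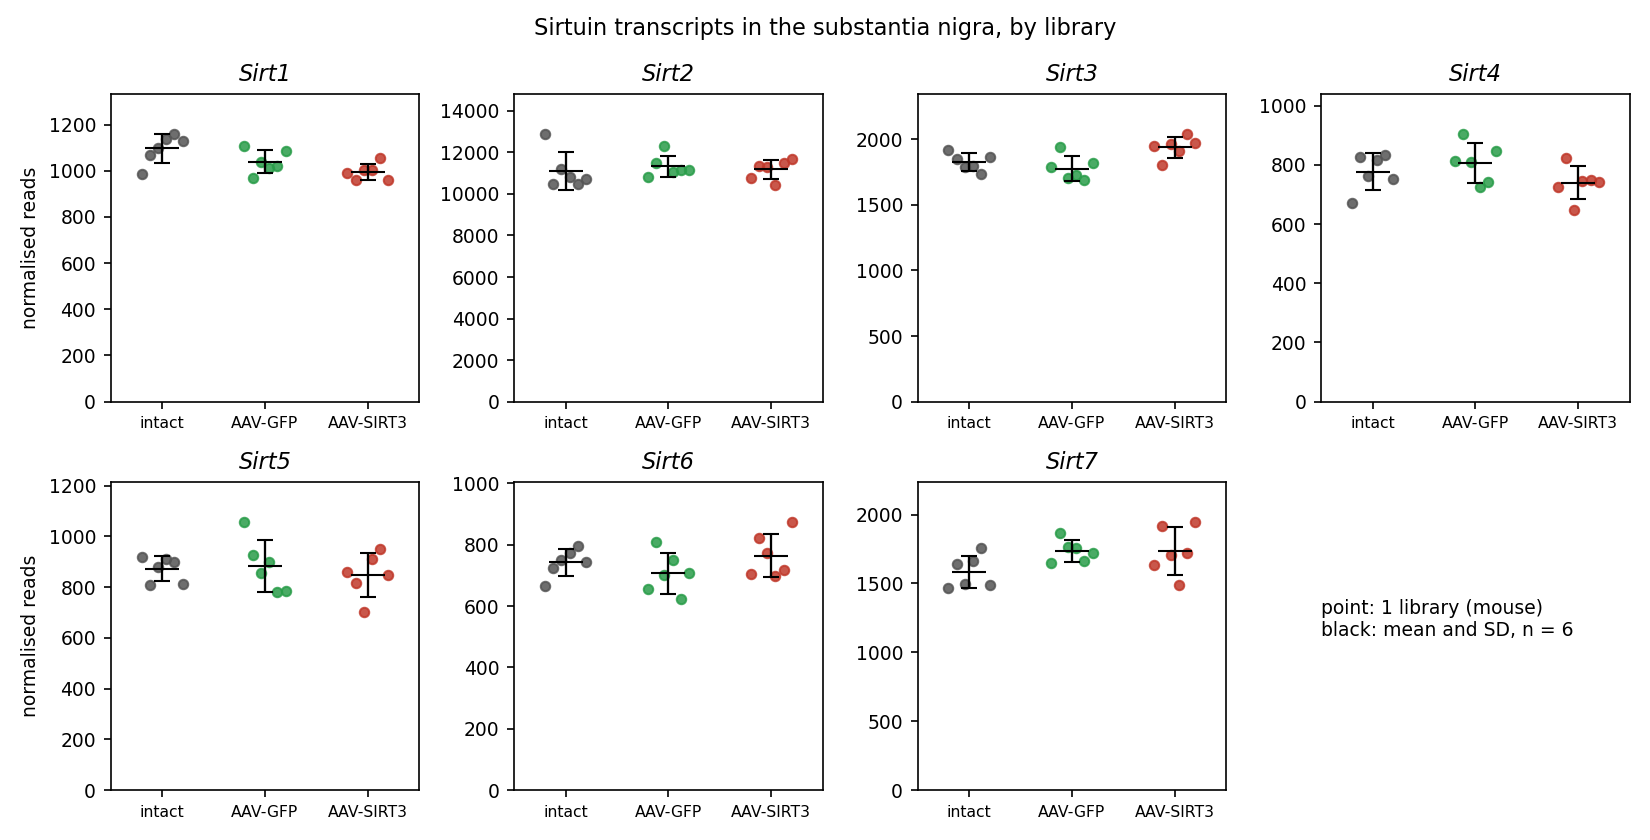
Normalised read count of each sirtuin in the 18 libraries, with the mean and SD of each group. Sirt3 is the member with the largest AAV-SIRT3 to AAV-GFP difference, 1937 against 1775, and the groups overlap in every panel.

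Psmd13, a proteasome subunit, and Ric8a, a chaperone of G protein alpha subunits, share exon sequence with Sirt3 in GENCODE M21. Psmd13 ran from 2874 to 3898 (median 3193) in AAV-GFP and from 3223 to 3704 (median 3517) in AAV-SIRT3. Ric8a ran from 2160 to 2491 (median 2334) in AAV-GFP and from 2336 to 2704 (median 2577) in AAV-SIRT3. Both genes, like Sirt3, had their top AAV-GFP count in replicate 2. Both overlapped between the groups, and the log2 fold change was 0.10 for Psmd13 (adjusted p = 0.388, limma) and 0.13 for Ric8a (adjusted p = 0.157), beside 0.13 for Sirt3.

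In AAV-SIRT3 against intact both neighbours were called, as were 21.7% of all genes. Psmd13 rose by a log2 fold change of 0.17 (adjusted p = 0.0302, limma) and Ric8a by 0.13 (adjusted p = 0.0279). Sirt3 was not called, at 0.09 (adjusted p = 0.148, exact permutation p = 0.0325, higher in 32 of 36 pairs). Whether Sirt3 differed from its neighbours in this comparison was not tested. The call was lost in 10 of 30 alternatives for Psmd13 and in 7 of 30 for Ric8a. The log2 ratio of Sirt3 over Psmd13 within a library differed between AAV-SIRT3 and AAV-GFP by 0.03 (SE 0.045, exact permutation p = 0.574) and that of Sirt3 over Ric8a by -0.005 (SE 0.039, exact permutation p = 0.900). Neither ratio passed, so no difference of Sirt3 relative to either neighbour was detected. The libraries were stranded, but the annotation and strand setting of the counting are not given in the sources used here. Without them, reads from the exons that overlap in GENCODE M21 cannot be told apart.

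**Figure D3:**
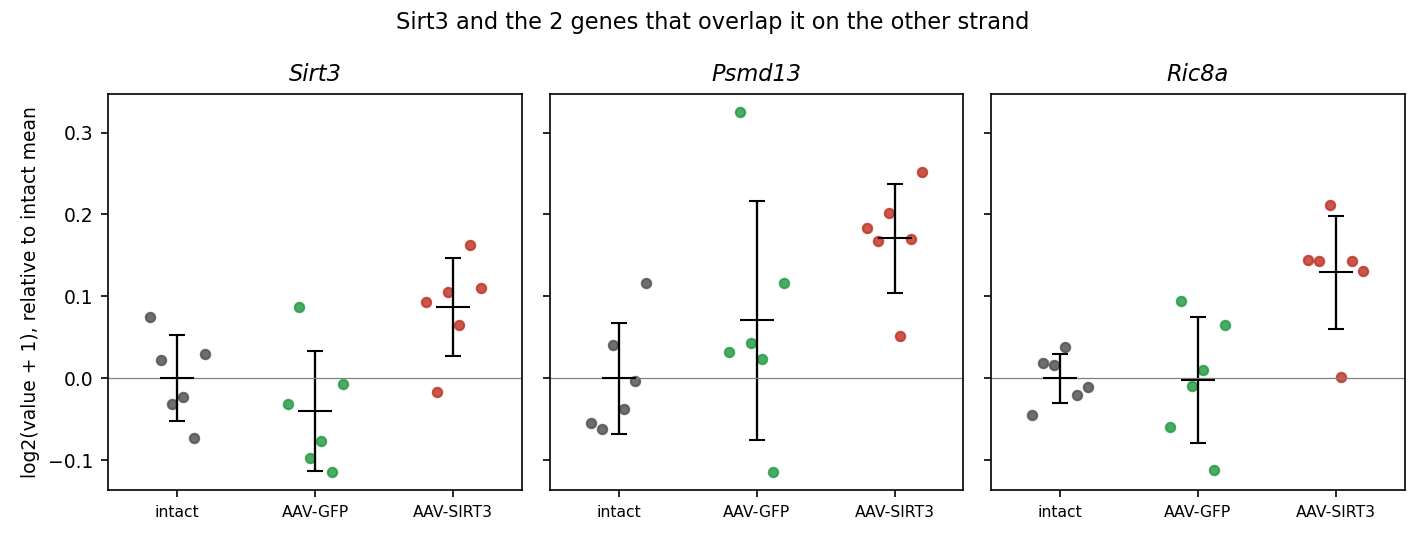
Level of Sirt3 and of the 2 genes whose exons overlap it in GENCODE M21, as log2(value + 1) minus the intact mean, with 1 point per library and the mean and SD of each group of 6. The AAV-SIRT3 to AAV-GFP log2 fold changes are 0.13, 0.10 and 0.13, and the libraries overlap for each gene.

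The ratio of Sirt3 to each other sirtuin in the same library does not depend on depth, and 6 such ratios were compared between AAV-SIRT3 and AAV-GFP by exact two-sided permutation tests, with p not adjusted over the 6. The log2 ratio was higher in AAV-SIRT3 by 0.25 (SE 0.068) over Sirt4 (exact permutation p = 0.00866), by 0.19 (SE 0.050) over Sirt1 (p = 0.0130) and by 0.15 (SE 0.052) over Sirt2 (p = 0.0195). It was higher in 33, 31 and 32 of 36 pairs of libraries, and the groups overlapped each time. The difference was 0.18 over Sirt5 (exact permutation p = 0.0541), 0.13 over Sirt7 (p = 0.102) and 0.01 over Sirt6 (p = 0.855), which did not pass. The Sirt3 level was among the values that drew attention to this gene, so these ratios are a description of the same libraries and no separate evidence.

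The other mitochondrial sirtuins showed no difference that passed. Sirt4, a lipoamidase and ADP-ribosyltransferase that restrains glutamine oxidation, had a lowest, median and highest count of 670.7, 788.1 and 835.1 in intact mice, 724.3, 810.3 and 905.5 in AAV-GFP, and 649.0, 744.3 and 823.5 in AAV-SIRT3. The 3 groups overlapped widely. AAV-SIRT3 against AAV-GFP gave a log2 fold change of -0.12 (SE 0.068, adjusted p = 0.387), with an interval from -16.9% to 1.17%.

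Sirt5, the mitochondrial desuccinylase, demalonylase and deglutarylase, had 808.6, 889.6 and 919.5 in intact mice, 780.4, 876.6 and 1056 in AAV-GFP, and 702.4, 853.6 and 950.4 in AAV-SIRT3. The 2 virus groups had the wider spread, with a coefficient of variation of 11.6% and 10.1% against 5.63% in intact. The log2 fold change over AAV-GFP was -0.06 (SE 0.076, adjusted p = 0.764), with an interval from -13.8% to 7.18%.

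Sirt1 fell in AAV-SIRT3 against intact and was the single sirtuin called in any comparison. SIRT1 is the nuclear deacetylase of p53, FOXO factors and PGC-1alpha. Its lowest, median and highest counts were 985.4, 1115 and 1160 in intact mice, 970.2, 1030 and 1108 in AAV-GFP, and 959.5, 996.1 and 1054 in AAV-SIRT3. The group means were 1097 ± 63.0, 1039 ± 50.3 and 995.2 ± 34.7 (SD, n = 6 each), and intact replicate 1 lay among the AAV-SIRT3 libraries, so the groups overlapped. The log2 fold change of AAV-SIRT3 against intact was -0.14 (SE 0.048), that is -9.18% with an interval from -15.3% to -2.62% (adjusted p = 0.0443, limma with Benjamini-Hochberg adjustment, exact permutation p = 0.0152). AAV-SIRT3 was higher in 4 of 36 pairs.

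That call is 1 of 7 sirtuins (14.3%) in a comparison where 21.7% of all genes were called, 11.3% higher and 10.3% lower, so the count was not above the background. At an unadjusted p under 0.05, 2 of 7 passed (Sirt1 and Sirt7), against 34.9% of all genes. Both edgeR and DESeq2 also called 1 of 7. The call lay close to the threshold: it was lost in 18 of 30 alternatives, with a fold change between -0.17 and -0.11 and an adjusted p between 0.0159 and 0.108. The Sirt1 fold change was -0.08 for AAV-GFP against intact (adjusted p = 0.400) and -0.06 for AAV-SIRT3 against AAV-GFP (adjusted p = 0.575), and these comparisons share libraries with the called one. Sirt1 had r = -0.59 and rho = -0.68 with the oligodendrocyte marker score over 18 libraries (permutation p = 0.0108 and 0.00245, adjusted p = 0.356 and 0.0857 over 70 relations, r = -0.65 without the 2 farthest libraries). Within the groups r was -0.94 in intact mice, -0.15 in AAV-GFP and -0.12 in AAV-SIRT3. With that score as covariate the Sirt1 fold change against intact was -0.11 (adjusted p = 0.108). Sirt1 also had r = 0.56 and rho = 0.61 with the score of hippocampus and cortex markers (permutation p = 0.0156 and 0.0091, adjusted p = 0.356 and 0.211), with r = 0.31 without the 2 farthest libraries.

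Sirt6 and Sirt7, the other nuclear members, gave no call. SIRT6 deacetylates histone H3 at telomeres and at glycolytic genes. Sirt6 had a lowest, median and highest count of 665.2, 747.1 and 795.2 in intact mice, 622.7, 703.9 and 809.7 in AAV-GFP, and 696.5, 744.5 and 873.2 in AAV-SIRT3. The AAV-SIRT3 to AAV-GFP log2 fold change was 0.11 (SE 0.070, adjusted p = 0.459), close to the value for Sirt3, with an interval from -2.31% to 19.5% and wide overlap. SIRT7 is a nucleolar enzyme that promotes ribosomal RNA synthesis. Sirt7 had 1469, 1568 and 1756 in intact mice, 1648, 1741 and 1863 in AAV-GFP, and 1489, 1714 and 1944 in AAV-SIRT3.

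Sirt7 had nearly the same mean in both virus groups, 1736 ± 78.6 and 1735 ± 173, against 1585 ± 117 in intact mice (SD, n = 6 each), and neither difference passed. The AAV-GFP value was 9.69% above intact with an interval from 0.483% to 19.7% (adjusted p = 0.234, 32 of 36 pairs), and the AAV-SIRT3 value was 9.25% above with an interval from 0.0813% to 19.3% (adjusted p = 0.139, 26 of 36 pairs). The 2 comparisons share the intact libraries. Between the virus groups the Sirt7 fold change was -0.01 (adjusted p = 0.976), with an interval from -8.76% to 8.73%. The microglial marker sums given above overlapped between intact mice and each virus group. The microglial score, a mean log2 level relative to the intact mean, was higher in both virus groups. It was 0.86 ± 0.19 in AAV-GFP and 0.46 ± 0.23 in AAV-SIRT3, with an SD of 0.11 in intact mice (n = 6 each). The part of microglia in the Sirt7 values was not tested. With the microglial score Sirt7 had r = 0.51 and rho = 0.50 over 18 libraries (permutation p = 0.0327 and 0.0379, adjusted p = 0.382 and 0.531), r = 0.49 without the 2 farthest libraries, and 0.14, -0.26 and 0.47 within intact mice, AAV-GFP and AAV-SIRT3. Without AAV-SIRT3 replicate 4 the AAV-SIRT3 to intact fold change was 0.17 with an adjusted p of 0.0376.

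Against intact, AAV-GFP called 0 of 7 sirtuins by limma, by edgeR and by DESeq2, where 1.84% of all genes were called (0.823% higher and 1.02% lower). At an unadjusted p under 0.05, 1 of 7 passed (Sirt7), against 19.1% of all genes. The groups overlapped for all 7 sirtuins in this comparison, where 1.86% of all genes separated, and likewise in AAV-SIRT3 against intact, where 9.33% did.

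**Figure D4:**
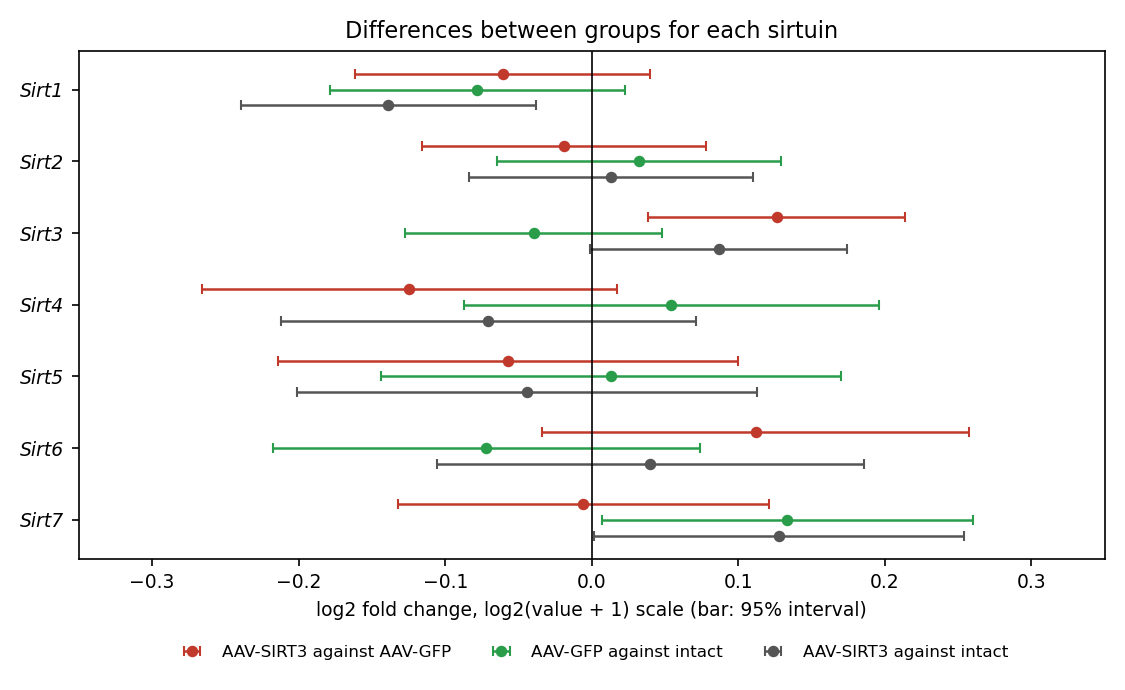
Log2 fold change of each sirtuin in the 3 comparisons, with 95% intervals from limma. The 21 values lie between -0.14 and 0.13, and Sirt1 in AAV-SIRT3 against intact is the single one that passed the adjusted threshold.

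Sirt2, the tubulin and cytosolic protein deacetylase, gave no call and followed the myelin genes from library to library. Its lowest, median and highest counts were 10453, 10767 and 12897 in intact mice, 10820, 11159 and 12290 in AAV-GFP, and 10444, 11328 and 11688 in AAV-SIRT3. The single highest library was intact replicate 1, and the groups overlapped throughout. The log2 fold change was -0.02 over AAV-GFP (SE 0.047, adjusted p = 0.887), with an interval from -7.72% to 5.54%, and 0.01 over intact (adjusted p = 0.872), with an interval from -5.66% to 7.90%.

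Over the 18 libraries Sirt2 had r = 0.88 with the mean log2 level of 10 oligodendrocyte and myelin markers (permutation p = 1e-05, the floor set by 100000 resamples). The adjusted p was 0.0007 over the 70 relations between a sirtuin and a marker score. Spearman's rho was 0.86 (permutation p = 2e-05, adjusted p = 0.0014), and r was 0.79 without the 2 libraries farthest from the median. Within the groups of 6, r was 0.96 in intact mice, 0.91 in AAV-GFP and 0.78 in AAV-SIRT3. Of the 70 relations, this one alone passed the adjusted threshold. The summed markers ran from 830917 to 1020742 in intact mice, 865228 to 991390 in AAV-GFP and 845783 to 977925 in AAV-SIRT3, and intact replicate 1 was highest both for Sirt2 and for Mbp, myelin basic protein, at 467731.

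The genes whose log2 level followed each sirtuin most closely over the 18 libraries, among 15244 genes with a mean of at least 50, are a description. For Sirt2 they were Gltp (r = 0.91), Mbp (0.91) and Fez1 (0.90). For Sirt3 they were Drg1 (0.89), Mrpl19 (0.85) and Tmem9 (0.85), and for Sirt1 Papolg (0.88), Gm6566 (0.87) and Vgll3 (0.86). For Sirt7 they were Smarcd2 (0.90), Gm42568 (0.88) and Rad1 (0.86), and for Sirt6 Dynlt2b (0.86), Bscl2 (0.81) and Gtf2ird2 (0.79). Sirt4 had Amt (0.77) and Gm42979 (0.77), and Sirt5 had Ror2 (0.80), Htra2 (0.72) and Eri2 (0.70). These points share the size factor of their library. Among the sirtuins themselves the highest pair was Sirt6 and Sirt7, with r = 0.59 over all libraries and 0.69 within intact mice, 0.94 within AAV-GFP and 0.91 within AAV-SIRT3. The pair was chosen after its values were seen.

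**Figure D5:**
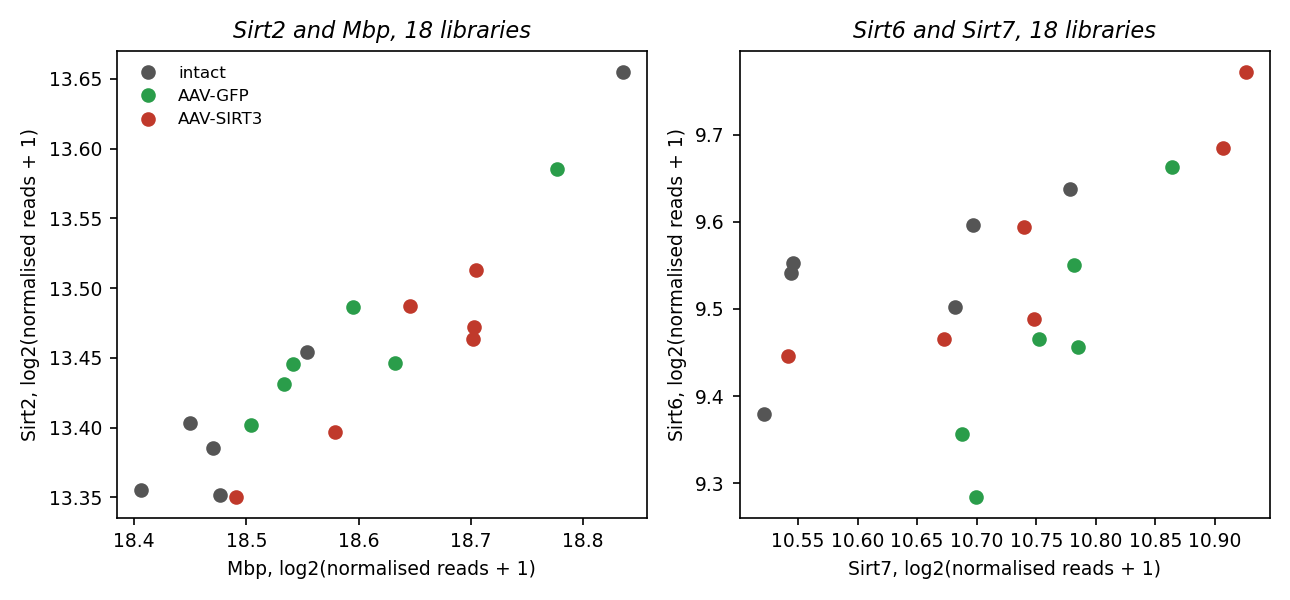
Log2(value + 1) of Sirt2 against Mbp and of Sirt6 against Sirt7, with 1 point per library coloured by group. Sirt2 and Mbp have r = 0.91 over the 18 libraries, with intact replicate 1 highest on both axes, and Sirt6 and Sirt7 have r = 0.59.

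Genes that make, transport or consume NAD+, substrates and regulators of sirtuins, and zinc-dependent deacetylases were read from 5 lists, of which 85 genes were tested. The lists were compiled with earlier results of these data known. Between AAV-SIRT3 and AAV-GFP 0 of 85 were called by limma, where 0.113% of all genes were called. By edgeR and by DESeq2 the count was 0 as well. Of the 85, 14 had an unadjusted p under 0.05 in limma, against 15.2% of all genes. The largest difference, which did not pass, was that of Kynu, a kynureninase (log2 fold change 0.56, adjusted p = 0.462). Median fold changes of the lists lay between -0.03 and 0.05, and that of all genes was -0.004.

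Between AAV-GFP and intact, 2 of 85 were called, against 1.84% of all genes. They were Afmid, a formamidase of the kynurenine route to NAD+, which fell by 0.69 on the log2 scale (adjusted p = 0.0459), and Hdac4, a class IIa deacetylase, which fell by 0.18 (adjusted p = 0.0496). The call was kept in 17 of 30 alternatives for Afmid and in 8 of 30 for Hdac4. Against intact, Afmid fell in AAV-SIRT3 too, by 0.54 (adjusted p = 0.0320).

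AAV-SIRT3 against intact called 20 of 85 list genes, 23.5%, close to the 21.7% of all genes, and AAV-GFP shares the intact libraries of that comparison. Atp5o, the OSCP subunit of ATP synthase and a SIRT3 substrate, ran from 2481 to 2903 (median 2671) in intact and from 3142 to 4084 (median 3253) in AAV-SIRT3, without overlap. It rose by 0.33 (SE 0.064, adjusted p = 0.00165). Of all genes, 9.33% separated without overlap in this comparison. Ndufa9 of complex I rose by 0.12 and Mrpl10 of the mitochondrial ribosome by 0.13, calls that were kept in 17 and 16 of 30 alternatives. With the trend with exon length removed these values were 0.036 (adjusted p = 0.531) and 0.034 (adjusted p = 0.597). With Atp5o, 3 of the 23 mitochondrial substrates tested rose.

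Among substrates and regulators of the nuclear and cytosolic sirtuins, 5 rose and 1 fell of 23 tested (26.1%). Rps19bp1, also called AROS and known as an activator of SIRT1, rose by 0.40 (adjusted p = 0.00150), from 437.6 to 538.5 in intact to 570.5 to 776.2 in AAV-SIRT3. Per2, a clock gene whose protein SIRT1 deacetylates, rose by 0.33 (adjusted p = 0.00401). Ep300, an acetyltransferase, fell by 0.31 (adjusted p = 0.00194), and Stk11, which encodes the kinase LKB1, rose by 0.20 (adjusted p = 0.00746). None of these 4 genes overlapped between the groups, in a comparison where 9.33% of all genes separated, and each kept its call in 30 of 30 alternatives. Ubtf (0.13) and Tuba1a (0.12) were also called but overlapped, and kept the call in 18 and 14 of 30; Tuba1a was 0.031 (adjusted p = 0.591) with the length trend removed. AAV-GFP against intact gave 0.27 for Rps19bp1, 0.24 for Per2 and -0.19 for Ep300, none of which passed.

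Of NAD+ synthesis and transport genes, 4 rose and 1 fell of 19 tested (26.3%): Kmo by 0.62 (adjusted p = 0.0240), Slc12a8 by 0.54 (adjusted p = 0.0296), Nmnat2 by 0.15 and Nadk by 0.15, with Afmid the one that fell. Nmnat2, the cytosolic NAD+ synthase that protects axons, had a log2 fold change of 0.15 and an adjusted p of 0.0103. With the thalamus score as covariate 0 of the 5 were called: the Slc12a8 value was 0.04, that of Kmo 0.21, that of Nmnat2 0.05, that of Nadk 0.14 and that of Afmid -0.47. The count was 2 without intact replicate 1, intact replicate 3 or AAV-SIRT3 replicate 1. Nampt, the rate-limiting enzyme of NAD+ salvage, was not called. Of the other NAD+ consumers 1 of 9 (11.1%) was called, Tnks, a tankyrase, which fell by 0.22 (adjusted p = 0.00679). Its value was -0.19 (adjusted p = 0.0821) with the thalamus score and -0.071 (adjusted p = 0.198) with the length trend removed. Of the zinc-dependent deacetylases 4 of 11 (36.4%) were called, in a comparison where 21.7% of all genes were. Hdac5 and Hdac2 were higher by 0.15 each, Hdac11 was higher by 0.10 and Hdac7 lower by 0.22. In this list 1 gene was called with the thalamus score and 2 with the length trend removed. Summed thalamus markers ran from 58207 to 103543 in intact, 89032 to 101140 in AAV-GFP and 86707 to 110816 in AAV-SIRT3. With the thalamus score as covariate 1602 genes were called in place of 4214. Relative to the intact mean, the score was 0.45 ± 0.08 in AAV-GFP and 0.49 ± 0.13 in AAV-SIRT3, with an SD of 0.43 in intact mice. As the score differed with the group, thalamus content and virus cannot be fully told apart in that fit.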

How the data were processed

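Poly-A RNA from 18 libraries was examined, 6 per group, grouped and numbered by the sample titles. Per the labels' protocols libraries were stranded and read in pairs. The deposited table gives a signal for each gene, made by the authors, per the name of the deposited table, by normalising HTSeq read counts with DESeq2. The submitters' processing notes name HISAT2 2.1.0, DESeq2 1.34.0 and the build mm10. The annotation, strand setting and counting mode are not given in the sources used here. Undoing the size factors returned whole reads for 100% of values (largest deviation 4.7e-09 reads), 47.2 to 64.7 M per library. Reads are not independent molecules, so depth covers counting error alone. Replicate pairs differed by more than sampling noise (chi-square per degree of freedom 8.27 to 36.6). The labels give 6 mice per group.

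Testing used limma 3.58.1 (R 4.3.3) on log2(value + 1), in 1 fit of the 3 groups with a prior variance that follows expression, over the 19443 genes that reached 10 in 6 or more libraries, with Benjamini-Hochberg adjustment at 0.05 over all of them. Single values were compared by exact permutation tests. Alternatives were other pseudocounts, TMM, other filters, edgeR 4.0.16 and DESeq2 1.42.0 on recovered reads, fits of 2 groups, a replicate block, marker scores as covariates and leaving out each library. Lengths and overlaps came from GENCODE M21 (GRCm38), which matched 49093 of 55270 genes, and start regions from RefSeq. Named genes were the 7 sirtuins, genes that overlap them, the 3 most correlated genes of each, and of each pathway list up to 6 called members, or the 2 largest where none was called. Some genes that this rule names are not reported here. Members, lists and tests were chosen with earlier results of these data known. The fit was run on simulated counts whose planted changes were larger than any sirtuin difference here. That run therefore does not cover differences of the sirtuins' size. Replicate numbers were not taken to pair the mice. No columns were left without a sample, 0 in all.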

Additional observations from a re-analysis of the deposited data

Results flagged for a closer look

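Of 156 groups of 6 values examined, 15 held a highest or lowest library so far from its nearest neighbour, relative to the spread of all 6, that Dixon's criterion at 95% was met. Chance alone gives about 1 in 20, or 7.8 here. Sirt2 in intact replicate 1, at 12897 normalised reads, stood apart from the next library at 11222, and Mbp in the same library, at 467731, from 384843. The log2 ratio of Sirt3 over Sirt1 was 1.00 in AAV-GFP replicate 2, with the next at 0.77. The log2 ratio of Sirt3 over Sirt5 was 1.48 in AAV-SIRT3 replicate 3, with the next at 1.22.

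Among genes of the NAD+ and deacetylase lists, Kynu was highest in intact replicate 3 at 29.3 (next 17.7), Nnmt in AAV-SIRT3 replicate 6 at 29.3 (next 15.6) and Tnks in intact replicate 1 at 10994 (next 9831). Hdac5 was lowest in AAV-SIRT3 replicate 4 at 8217 (next 8640). Among the substrates and regulators, Rps19bp1 was lowest in intact replicate 4 at 437.6 (next 507.7), Per2 in AAV-SIRT3 replicate 3 at 1378 (next 1501) and Ep300 in intact replicate 3 at 4271 (next 4568). Atp5o was highest in AAV-SIRT3 replicate 6 at 4084 (next 3350.0), as was Ndufa9 at 6180 (next 5837). Slc6a3, the dopamine transporter, was lowest in AAV-GFP replicate 5 at 6087 (next 8113) and in AAV-SIRT3 replicate 6 at 7743 (next 10540).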

How the results depend on the processing

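Each sirtuin was refitted under 30 alternatives per comparison. Of these 630 fits, 591 kept direction and side of the threshold, 18 were weaker (all Sirt1 in AAV-SIRT3 against intact), 2 became calls and 19 reversed, all of them differences that were not called. With the oligodendrocyte score as covariate Sirt2 was -0.042 in AAV-SIRT3 and -0.014 in AAV-GFP against intact, and Nfkbib -0.027 in AAV-SIRT3 against intact. With the thalamus score Sirt5 in AAV-SIRT3 against intact was 0.040, and Sirt4 and Nfkbib in AAV-GFP against intact were -0.0028 and 0.061. With the length trend removed Sirt7 was 0.00012 in AAV-SIRT3 against AAV-GFP, Sirt6 and Nfkbib were -0.017 and -0.049 in AAV-SIRT3 against intact, and Ric8a was 0.024 in AAV-GFP against intact. Leaving out 1 library also turned signs: against AAV-GFP, Sirt2 ran from -0.032 to 0.0048 and Sirt7 from -0.040 to 0.037. In AAV-SIRT3 against intact, Sirt2 ran from -0.0037 to 0.057, Sirt5 from -0.078 to 0.0089 and Nfkbib from -0.0040 to 0.068. In AAV-GFP against intact, Sirt5 ran from -0.040 to 0.047, Ric8a from -0.021 to 0.020 and Nfkbib from -0.055 to 0.018. The 2 new calls were Sirt3 in AAV-SIRT3 against AAV-GFP without AAV-GFP replicate 2 and Sirt7 in AAV-SIRT3 against intact without AAV-SIRT3 replicate 4. The sirtuins called against AAV-GFP ranged from 0 to 1 when 1 library was left out. Against intact, AAV-SIRT3 called 0 rather than 1 sirtuin with all genes above 0, with only the 2 groups fitted, with the thalamus or oligodendrocyte score, and with the length trend removed, and 0 to 1 when 1 library was left out. The cause was not tested. Removal of the length trend and levels by principal transcript were chosen after seeing the data.

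All-gene counts moved more. AAV-SIRT3 against AAV-GFP called 22 genes, 311 by DESeq2, 8 with only the 2 groups, and 5 (without AAV-SIRT3 replicate 5) to 861 (without AAV-GFP replicate 2) when 1 library was left out. AAV-GFP against intact called 358, against 164 with all genes above 0, 999 by DESeq2, 199 with only the 2 groups, 35 with the thalamus score and 129 to 686 when 1 library was left out. AAV-SIRT3 against intact called 4214, and 1602 with the thalamus score. Leaving out 1 library, the log2 ratio of Sirt3 over Sirt1 differed by 0.17 to 0.23, over Sirt2 by 0.11 to 0.17, over Sirt4 by 0.21 to 0.30, over Sirt5 by 0.13 to 0.22, over Sirt6 by -0.018 to 0.057, over Sirt7 by 0.093 to 0.18 and over Ric8a by -0.026 to 0.019. The ratio over Sirt5 passed without AAV-SIRT3 replicate 4 or AAV-GFP replicate 5 or 6, and that over Sirt7 without AAV-SIRT3 replicate 2.

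Over 18 same-number pairs of libraries the correlation of deviations ran from -0.17 to 0.30, and 3 were over 0.1. Its median was 0.02, against -0.01 for pairs with different numbers. Replicate numbers were therefore not taken as pairs, but whether they mark mice handled together was not tested. With the number as a replicate block, AAV-SIRT3 against AAV-GFP called 13 genes and AAV-SIRT3 against intact called 0 sirtuins. For the ratios, that block used an exact permutation test that flips the signs of the 6 same-number differences. Its smallest possible p is 0.03125, so it can separate less than the test of 6 against 6 libraries. The ratio of Sirt3 over Sirt1 differed by 0.19 (exact permutation p = 0.0625, sign flips) and over Sirt2 by 0.15 (exact permutation p = 0.0938, sign flips). Over Sirt4 it differed by 0.25 and stayed at that smallest value (exact permutation p = 0.03125, sign flips). With 6 libraries per group, the 95% intervals of single sirtuins leave differences of the sizes given in the report undetected.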
